A study of Mus musculus with 4 samples.

Results

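The clustered histone genes were examined in RNA-seq of mouse embryonic stem cells (mESCs), in wild-type (WT) cells and in cells labelled *Spen* KO. They were taken as every gene of the deposited count table whose GENCODE vM1 symbol starts with Hist1h, Hist2h, Hist3h or Hist4h, which gave 70 of 37310 genes. By class they comprise 6 linker histone H1 genes, 20 H2A, 19 H2B, 12 H3 and 13 H4 genes. By cluster, 56 belong to Hist1 on chromosome 13, 10 to Hist2 on chromosome 3, 3 to Hist3 on chromosome 11 and 1 to Hist4 on chromosome 6. The 3 annotated pseudogenes, *Hist1h2aj*, *Hist2h3c2* and *Hist3h2bb-ps*, are included. Of the 70, 65 had an adjusted p-value and 3 had too few counts for one (*Hist1h2bq*, *Hist1h2ao* and *Hist1h2ap*). The other 2 (*Hist2h2ab* and *Hist2h2aa1*) had no count in any library, where 3 counts would be the upper limit from counting error alone. All (100%) of the *Hist2h2ab* exon lies opposite *Gm15444*, and 97.2% of *Hist2h2aa1* overlaps *Hist2h3c1* on the same strand. Reads there may have been left unassigned, so that limit does not bound their expression.

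WT mESCs were the HATX line, a haploid line of mixed genomic background with an *Xist* transgene that doxycycline can switch on. The other group was clone 2 of a *Spen* knockout of HATX cells. Its allele is described both as a full *Spen* deletion and as lacking the majority of the locus. *Spen* encodes a large RNA-binding repressor protein. Both groups were grown in serum and LIF, the labels give no treatment, and each group had 2 libraries. Each group is 1 cell line, so any difference of the clone from its parent other than *Spen* cannot be told apart from the genotype. No source says that the libraries of a group came from separate cultures, so p-values measure only the spread between these libraries, which may be technical.

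Replication-dependent histone genes supply the bulk of the histones that package newly made DNA. Their mRNAs are made in S phase, usually have no introns, and end in a conserved stem-loop in place of a poly(A) tail. The stem-loop is bound by SLBP, which acts in 3′ end formation, export, translation and decay of these mRNAs, and NPAT activates their promoters. Many of the genes encode the same protein. Libraries made by depletion of ribosomal RNA, as here, keep such RNAs, whereas poly(A) selection would lose most of them.

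The stem-loops are shown because they define the class of RNA that was counted. A stem-loop of 6 bases, 4 loop bases and 6 pairing bases was found within 150 bases after the annotated stop codon, or from 60 bases before the end of a gene with no annotated stop, in 61 of the 70 genes. In other protein-coding genes it was found in 4 of 22313 (0.0179%), and *H2afx* is among these. Its first base lay 22 to 59 bases after the stop codon, with a median of 32. All 6 H1 and all 13 H4 genes had it, against 17 of 20 H2A, 14 of 19 H2B and 11 of 12 H3 genes. The following are the highest-level gene of each class per exonic length, then the 3 H4 genes *Hist1h4i*, *Hist1h4b* and *Hist1h4c*, which differed in their response. Capitals mark the stem-loop.

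*Hist1h1a*: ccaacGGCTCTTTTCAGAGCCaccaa

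*Hist1h2ab*: acaaaGGCTCTTTTCAGAGCCaccca

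*Hist1h2bb*: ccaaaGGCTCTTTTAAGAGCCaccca

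*Hist1h3e*: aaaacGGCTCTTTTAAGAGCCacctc

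*Hist1h4d*: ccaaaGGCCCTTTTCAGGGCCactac

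*Hist1h4i*: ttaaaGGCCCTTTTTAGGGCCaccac

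*Hist1h4b*: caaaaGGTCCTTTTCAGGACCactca

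*Hist1h4c*: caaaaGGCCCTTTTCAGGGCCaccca

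Each is written 5′ to 3′ on the strand of the gene, from build NCBIM37 (mm9). The *Hist1h4i* stretch is chr13:22132830-22132855 on the minus strand, and that of *Hist1h4d* is chr13:23673814-23673839 on the plus strand. The stem differed by class. All 48 stem-loops of H1, H2A, H2B and H3 genes opened with GGCTCT, whereas 11 of the 13 H4 genes opened with GGCCCT and the other 2, *Hist1h4b* and *Hist1h4j*, with GGTCCT. Of the genes with a stem-loop 57 were tested and 45 of them were lower at an adjusted p under 0.05, against 15.8% of all tested genes. Without it, 8 were tested, of which 2, *Hist1h2an* and *Hist1h2bp*, were lower and 1, *Hist1h2al*, was higher. Another 2, *Hist1h2aj* and *Hist1h2br*, had means under 50 normalized counts. Genes with and without a stem-loop were not tested against each other.

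Total counts per library ranged from 36667685 to 61908422. The histone genes took 1.11% and 1.21% of all counts in WT, against 0.835% and 0.896% in the KO-labelled group. *Spen*, the targeted gene, had 3716 and 3047 normalized counts in WT against 7797 and 6242 in the libraries labelled KO, a DESeq2 log2 fold change of 1.05 ± 0.21 (SE, adjusted p = 7.7e-06). Counts over the whole gene do not show whether the deleted stretch is missing, and the direction of each difference below follows the labels. The 8 embryonic stem cell markers were all detected, with sums of 193489 and 191485 against 201588 and 207816 normalized counts. Of 6 fibroblast or differentiation markers, *Col1a1*, *Col1a2*, *Col3a1* and *Postn* stayed under 50 normalized counts in each library. The sum of all 6 was 6850.4 and 7146 in WT against 3579 and 3758, nearly all of it *Vim*, an intermediate filament gene that these stem cells also express. *Vim* fell by 1.08 on the log2 scale, *Thy1* rose from 118 and 137 to 356 and 414, and the part of these markers in the results below was not tested. Rows that collect ribosomal RNA-like reads (*Lars2*, *mt-Rnr1* and *mt-Rnr2*) held 3.35% of the counts of WT replicate 1, against 0.795% to 1.33% in the other libraries.

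The histone genes were lower in the KO-labelled libraries. At an adjusted p under 0.05 (DESeq2, Benjamini-Hochberg over 17710 genes), 47 of the 65 tested genes were lower and 1 was higher, against 15.8% of all tested genes in the lower direction and 16.4% in the higher. A gene was called when it changed 2-fold or more and its adjusted p lay under 0.001, the thresholds of the study. By that rule 10 histone genes were called lower, against 3.15% of all genes, and 1 was called higher, against 1.36%. The median log2 fold change was -0.62 over the 65 genes and 0.00489 over all tested genes. In 53 of the 65 both KO-labelled libraries lay below both WT libraries, which held for 34.8% of all tested genes. In bulk RNA, fewer cells that make an RNA and less of that RNA per cell cannot be told apart.

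Most of these differences were small. The log2 fold changes of 63 of the 65 genes lay between those of *Hist1h2br* (-1.90 ± 2.50, with 0 to 43 counts per library) and *Hist1h2bj* (0.11 ± 0.09). Beyond them stood *Hist1h4i*, which was lowest, and *Hist1h2al*, which was highest and is the only histone gene that rose. With a library left out, 1 group is a single library, which the fit assumes to vary like the pair in the other group. Leaving out KO-labelled replicate 1 lowered the number called lower from 10 to 6, and leaving out WT replicate 2 moved the median to -0.48. At an adjusted p under 0.05 the number of lower genes stayed between 37 and 48 when any library was left out.

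**Figure D1:**
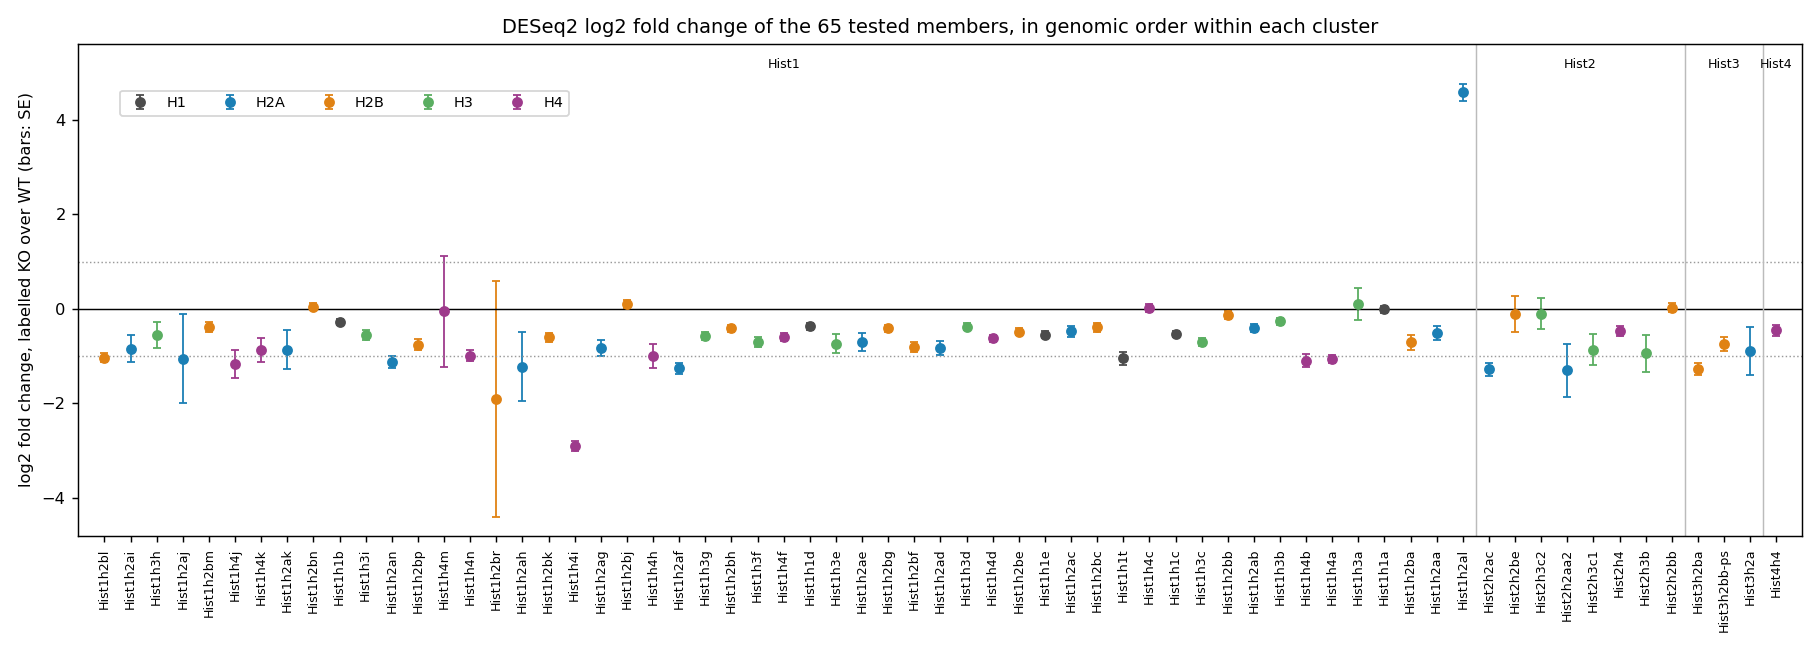
Log2 fold change (y axis, KO-labelled over WT, bars are standard errors) of the 65 tested histone genes in genomic order within each cluster (x axis), coloured by class, with dotted lines at a 2-fold change. Most points sit between -1.3 and 0, *Hist1h4i* lies at -2.91 and *Hist1h2al* at 4.58, and a few points with long bars are genes with very few counts.

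The shift was also seen within the pairs of libraries to a smaller extent. Over the 60 histone genes with a mean of at least 50 normalized counts, WT replicate 2 was higher than WT replicate 1 in 50 genes, by a median of 0.21 on the log2 scale. KO-labelled replicate 2 exceeded replicate 1 in 45 genes, by a median of 0.12. Over all 13306 such genes the medians were 0.00284 and 0.0156. The H4 and H3 genes differed most between the WT libraries, with medians of 0.32 and 0.27, and the H1 genes least, at -0.020. WT replicate 1, the lower of the WT libraries for these genes, is also the library with the most ribosomal RNA-like reads, and the part of this in the result was not tested.

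Other short genes had a median near 0. Most of the histone genes are short, with 55 of the 70 having at most 1000 bases of annotated exon. Among 441 other protein-coding genes with exons that short and a mean of at least 50 normalized counts, the median log2 fold change was -0.00584. Of these 441, 79 passed an adjusted p of 0.05 in the lower direction and 88 in the higher. The 65 of them with 1 exon block had a median of -0.042, with 10 lower and 5 higher. All 908 other genes of that length and mean, coding or not, had a median of -0.060, with 163 lower and 109 higher.

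The H4 genes included the largest decrease and also a gene with no detectable difference, although all 13 encode the same protein of 103 residues, the initiator methionine included. Of the 13, 11 fell at an adjusted p under 0.05, 4 of them by at least 2-fold with an adjusted p under 0.001, and the median log2 fold change was -0.87. Leaving out either KO-labelled library lowered the 11 to 7, and the number called was 1 without KO-labelled replicate 1 and 2 without WT replicate 2. None rose in DESeq2, also at an unadjusted p under 0.05 (0 genes) or in edgeR (0 genes).

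*Hist1h4i* (chr13:22132685-22133221, minus strand, a gene of a single exon) fell the most. It had 8010.5 and 8897 normalized counts in WT against 1009 and 1244, so that WT was 7.50 times higher. The log2 fold change was -2.91 ± 0.10 (SE, adjusted p = 4.24e-175). Its histone neighbours on either side had smaller differences. *Hist1h2bk* fell by 0.60 ± 0.10 and *Hist1h2ag* by 0.82 ± 0.17 on the log2 scale, while *Hist1h2bj* had a log2 fold change of 0.11 ± 0.09 (adjusted p = 0.364). Of the 75-base windows of the *Hist1h4i* exon, 36.6% occur elsewhere in the genome with at most 2 mismatches.

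The other called H4 genes changed about 2-fold. *Hist1h4a* and *Hist1h4b* were under 2-fold without KO-labelled replicate 1 (-0.98 and -0.92), as was *Hist1h4b* without WT replicate 2 (-0.91). *Hist1h4a* had 19746 and 21422 normalized counts in WT and 9258 and 10405 in the KO-labelled libraries (log2 fold change -1.07 ± 0.08, adjusted p = 1.34e-39). *Hist1h4b* had 2674 and 3370.4 against 1240 and 1589 (-1.10 ± 0.13), but 60.9% of its exon lies opposite another gene, *4930558J22Rik*, on the other strand. *Hist1h4j* had 5718 and 8537 against 3024 and 3332 (-1.17 ± 0.29, adjusted p = 0.000444). *Hist1h4j* did not pass the test when a KO-labelled library was left out, with an adjusted p of 0.0908 without KO-labelled replicate 1 and 0.0522 without replicate 2, and it was under 2-fold without WT replicate 2 (-0.84).

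*Hist1h4d*, the H4 gene with the highest level per kb of exon, fell less. It had 32230.2 and 34112 normalized counts in WT and 19920.4 and 23140 in the KO-labelled libraries, a log2 fold change of -0.62 ± 0.08 (adjusted p = 1.63e-13). *Hist1h4c* was at 8994 and 10539 in WT and at 9406 and 10351 in the KO-labelled libraries, so that the groups overlapped. Its log2 fold change was 0.016 ± 0.09 (adjusted p = 0.924). *Hist1h4f*, *Hist1h4h*, *Hist1h4k* and *Hist1h4n* fell by 0.60, 1.00, 0.87 and 0.99 on the log2 scale, and *Hist1h4m* had only 3 to 20 counts per library. For *Hist1h4k* the adjusted p was 0.182 without KO-labelled replicate 1 and 0.126 without replicate 2.

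The promoters of *Hist1h4i* and *Hist1h4d* are shown side by side because these H4 genes differed in level and in response. Each is the 150 bases before the annotated start in NCBIM37, for *Hist1h4i* at chr13:22133222-22133371 on the minus strand and for *Hist1h4d* at chr13:23673317-23673466 on the plus strand. Capitals mark TATAAA and CCAAT on either strand, the latter read as ATTGG on the opposite strand. The marked TATAAA stands near the far end of the 150 bases in *Hist1h4i* and nearer the annotated start in *Hist1h4d*.

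*Hist1h4i*: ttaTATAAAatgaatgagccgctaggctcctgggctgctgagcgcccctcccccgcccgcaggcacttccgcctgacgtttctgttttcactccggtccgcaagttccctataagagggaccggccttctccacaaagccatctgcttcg

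*Hist1h4d*: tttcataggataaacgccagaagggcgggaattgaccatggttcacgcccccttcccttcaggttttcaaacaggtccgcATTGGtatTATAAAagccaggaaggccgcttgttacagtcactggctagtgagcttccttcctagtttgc

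In the 250 bases before the annotated start, on either strand, the letters CCAAT occurred in 58 of the 70 histone genes (82.9%) and in 34.9% of other protein-coding genes. TATAAA was found in 33 of the 70 (47.1%) and in 12.2% of the others, and the octamer ATTTGCAT in 16 (22.9%) and 1.56%. The H4 genes differed from the other classes, with CCAAT in only 4 of 13, whereas all 19 H2B and 19 of 20 H2A genes had it. The octamer, known from H2B promoters, was present in 9 H2B and 7 H2A genes and in none of the H1, H3 or H4 genes. Of the tested genes with CCAAT 38 of 53 were lower at an adjusted p under 0.05, and of those without it 9 of 12. Of all tested genes 15.8% were lower. These are matches of letters and do not show that a factor binds there.

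Of the 12 H3 genes tested, 9 fell at an adjusted p under 0.05, none by the 2-fold rule, and the median log2 fold change was -0.57. Without KO-labelled replicate 2 the 9 became 5. With all libraries none rose in DESeq2, also at an unadjusted p under 0.05 (0 genes) or in edgeR (0 genes). *Hist1h3e*, with the highest level per kb, had 13644 and 17810.3 normalized counts in WT and 8993 and 9846 in the KO-labelled libraries. Its log2 fold change was -0.74 ± 0.20 (adjusted p = 0.00135), with an adjusted p of 0.127 when KO-labelled replicate 1 was left out and 0.0604 when replicate 2 was.

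By the protein they encode, the 6 genes for H3.2 (*Hist1h3b* to *Hist1h3f* and *Hist2h3b*) all fell, with a median of -0.70, but only 3 passed the test when either KO-labelled library was left out. *Hist1h3b* had an adjusted p of 0.0768 without KO-labelled replicate 1, 0.0603 without replicate 2 and 0.0852 without WT replicate 2. Of the 4 genes for H3.1, *Hist1h3g* fell by 0.58 ± 0.09 and *Hist1h3i* by 0.56 ± 0.10 on the log2 scale. The other H3.1 genes did not pass the test. *Hist1h3h* had a log2 fold change of -0.56 ± 0.28 (adjusted p = 0.115). *Hist1h3a* was at 3326 and 5356 in WT and at 4784 and 4534 in the KO-labelled libraries (0.10 ± 0.34, adjusted p = 0.869). Its sign rested on the WT library used, being 0.49 against WT replicate 1 alone and -0.20 against WT replicate 2 alone. In the first of these fits, with a WT group of 1 library, it passed as higher (adjusted p = 0.000323). The difference between the groups of H3.1 and H3.2 genes was not tested.

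The H2A genes had low counts and the largest split in direction. Of 16 tested, 10 fell and 1 rose at an adjusted p under 0.05, and the median log2 fold change was -0.85. Without WT replicate 2 the number that fell was 5. The canonical H2A protein of Hist1 is encoded identically by 9 of the genes, and of these the 7 that were tested all fell, by a median of 0.82 on the log2 scale. Without WT replicate 2 the median was -0.49 and 3 of them passed the test. *Hist1h2ag* had an adjusted p of 0.065 without WT replicate 2, 0.29 without KO-labelled replicate 1 and 0.219 without replicate 2. *Hist1h2ab*, with the highest level per kb in the class, had 3521 and 3434 normalized counts in WT and 2505 and 2722 in the KO-labelled libraries. It fell by 0.41 ± 0.09 on the log2 scale (adjusted p = 2.72e-05).

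The H2A genes called lower numbered 3, and 5 without WT replicate 1 or without KO-labelled replicate 2. *Hist1h2af* had 2186 and 2165 normalized counts in WT and 813 and 1001 in the KO-labelled libraries (log2 fold change -1.26 ± 0.12, adjusted p = 3.63e-24). *Hist1h2an* had 1480 and 1606 against 654 and 761 (-1.13 ± 0.13), but 100% of its windows have a near-identical copy. *Hist2h2ac*, from the cluster on chromosome 3, had 1228 and 1406 against 593 and 494 (-1.28 ± 0.14). *Hist1h2ah* (-1.23 ± 0.73, adjusted p = 0.207) and *Hist1h2ak* (-0.86 ± 0.42, adjusted p = 0.103) did not pass, with replicates that differed, while edgeR gave adjusted p-values of 0.00908 and 0.00249. Over all alternatives these ranged from 3.29e-09 to 0.643 for *Hist1h2ah* and from 4.52e-16 to 0.464 for *Hist1h2ak*.

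*Hist1h2al* was the exception among the 65 genes. It had 80.9 and 108 normalized counts in WT against 2009.6 and 2535, from 61 and 99 against 2308 and 3239 counts, so that it was 24.1 times higher in the KO-labelled group. The log2 fold change was 4.58 ± 0.18 (SE, adjusted p = 1.53e-143), and the gene was called higher when any library was left out. It lies at chr13:51298057-51298434 on the minus strand, 27.3 Mb from the nearest other Hist1 gene, and no stem-loop was found in the window after its coding sequence.

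Most of its sequence is shared. Of its 75-base windows 52.6% occur exactly elsewhere in the genome and 96.7% with at most 2 mismatches, most of them (95.1% of its windows) in *Hist2h2aa1*. That gene had no counts, and its identical twin *Hist2h2aa2* had 39.8 and 67.5 normalized counts in WT against 20.9 and 22.7. Both have exact copies for 100% of their windows, and 97.2% of *Hist2h2aa1* overlaps *Hist2h3c1* on the same strand. Their counts therefore cannot show from which gene the reads assigned to *Hist1h2al* came. Of the nearest detected genes to *Hist1h2al*, looked at after its values were seen, none rose. *Spin1*, 50.1 kb away, had 7857 and 8193 against 7652 and 8086 normalized counts (log2 fold change -0.028 ± 0.07, adjusted p = 0.825). *Nxnl2*, 27.5 kb away, had 13.3 and 17.4 against 26.1 and 31.3 (0.90 ± 0.72, adjusted p = 0.386), and *S1pr3*, 205.6 kb away on the other side, fell by 1.78 ± 0.70 on the log2 scale (adjusted p = 0.0354).

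Of the 18 H2B genes tested, 12 fell at an adjusted p under 0.05, 2 of them by the 2-fold rule, and the median log2 fold change was -0.45. Only 1 was called without WT replicate 2 or without KO-labelled replicate 2, where *Hist1h2bl* was at -0.93 and -0.97. None rose in DESeq2, also at an unadjusted p under 0.05 (0 genes) or in edgeR (0 genes). *Hist1h2bl* had 6174 and 7022 normalized counts in WT and 3369 and 3077 in the KO-labelled libraries (-1.03 ± 0.09, adjusted p = 1.07e-28). *Hist3h2ba* had 1639 and 1908 against 724 and 747 (-1.27 ± 0.12, adjusted p = 6.42e-24). Near-identical copies cover 98.4% of the windows of *Hist1h2bl* and 46.4% of those of *Hist3h2ba*.

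Several abundant H2B genes did not pass the test. *Hist1h2bb*, with the highest level per kb in the class, had 16139 and 15158 normalized counts in WT and 13004 and 15577 in the KO-labelled libraries (-0.13 ± 0.09, adjusted p = 0.271). *Hist1h2bn* was at 11045 and 10695 against 10753 and 11709 (0.047 ± 0.07, adjusted p = 0.692). *Hist2h2bb* was at 36271 and 31943 against 31572 and 37903 (0.027 ± 0.09, adjusted p = 0.871), and it is 1 of the 9 genes in which no stem-loop was found. In these genes and in *Hist1h2bj* the groups overlapped. *Hist1h2bl*, *Hist1h2bf*, *Hist1h2bj* and *Hist1h2bn* encode the same H2B protein, and their log2 fold changes were -1.03, -0.80, 0.11 and 0.047.

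Many H2A and H2B genes stand head to head and share the DNA between their starts. There were 13 such pairs with starts 167 to 305 bases apart, of which 10 had a mean of at least 50 normalized counts in both genes. The H2B gene had the higher level per kb in 7 of the 10, with a median ratio of 6.77. The log2 fold change was lower for the H2A gene in 8 of the 10, with medians of -0.84 for H2A and -0.51 for H2B. In the pair *Hist1h2ag* and *Hist1h2bj* they were -0.82 ± 0.17 and 0.11 ± 0.09, and in the pair *Hist1h2ad* and *Hist1h2bf* -0.84 ± 0.15 and -0.80 ± 0.10. The members of a pair were not tested against each other. In 7 of the 10 pairs the H2B gene also had the larger share of windows with near-identical copies.

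**Figure D2:**
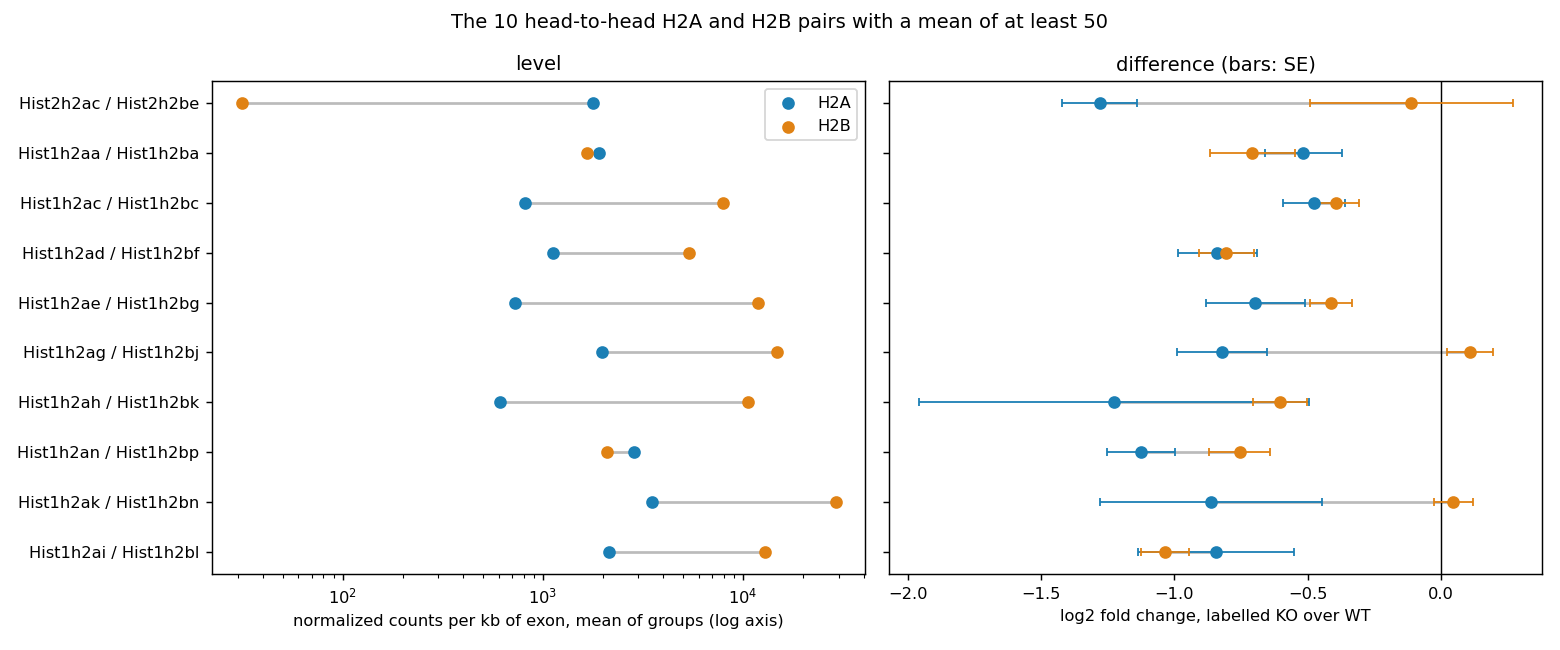
The 10 head-to-head pairs of an H2A and an H2B gene with a mean of at least 50 normalized counts in both: the left panel gives levels in normalized counts per kb of exon (log axis, mean of both groups), the right panel log2 fold changes of KO-labelled over WT with standard errors. The H2B gene has the higher level in 7 pairs and the H2A gene the lower log2 fold change in 8.

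The H1 genes, which encode the linker histones, have few near-identical copies, which covered at most 24.4% of the windows of any of them. Of the 6, 5 fell. *Hist1h1a* had the highest level per kb of all 70 by the mean of both groups, though *Hist1h4d* was higher in WT alone. *Hist1h1a* did not pass the test. It had 62953 and 57573 normalized counts in WT and 56915 and 63114 in the KO-labelled libraries, and a log2 fold change of -0.0059 ± 0.07 (adjusted p = 0.968). The sign of this value changed with the library left out.

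The 4 other somatic H1 genes fell by less than 2-fold. *Hist1h1b* had 35978 and 36690.0 normalized counts in WT and 30216 and 29798 in the KO-labelled libraries (-0.28 ± 0.06, adjusted p = 6.36e-05). *Hist1h1d* had 43892 and 41032 against 31070.1 and 34772 (-0.37 ± 0.07). *Hist1h1c* had 24249 and 26114 against 17245 and 17618 (-0.53 ± 0.07), and *Hist1h1e* had 17782 and 19709 against 12128 and 13522 (-0.55 ± 0.08). In each of these both KO-labelled libraries were below both WT libraries.

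*Hist1h1t*, the linker histone of spermatocytes, was present at a low level and was called lower. It had 1427 and 1361 normalized counts in WT and 596 and 750 in the KO-labelled libraries (-1.05 ± 0.14, adjusted p = 4.93e-13), and none of its windows had a near-identical copy. Without KO-labelled replicate 1 its log2 fold change was -0.89 and it was not called. The germ cell pair *Hist1h2aa* and *Hist1h2ba* also fell. *Hist1h2aa* had 809 and 938 against 590 and 632 (-0.52 ± 0.14), and *Hist1h2ba* had 809 and 793 against 432 and 548 (-0.71 ± 0.16). For *Hist1h2aa* the adjusted p was 0.0993 without KO-labelled replicate 1 and 0.177 without WT replicate 2.

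**Figure D3:**
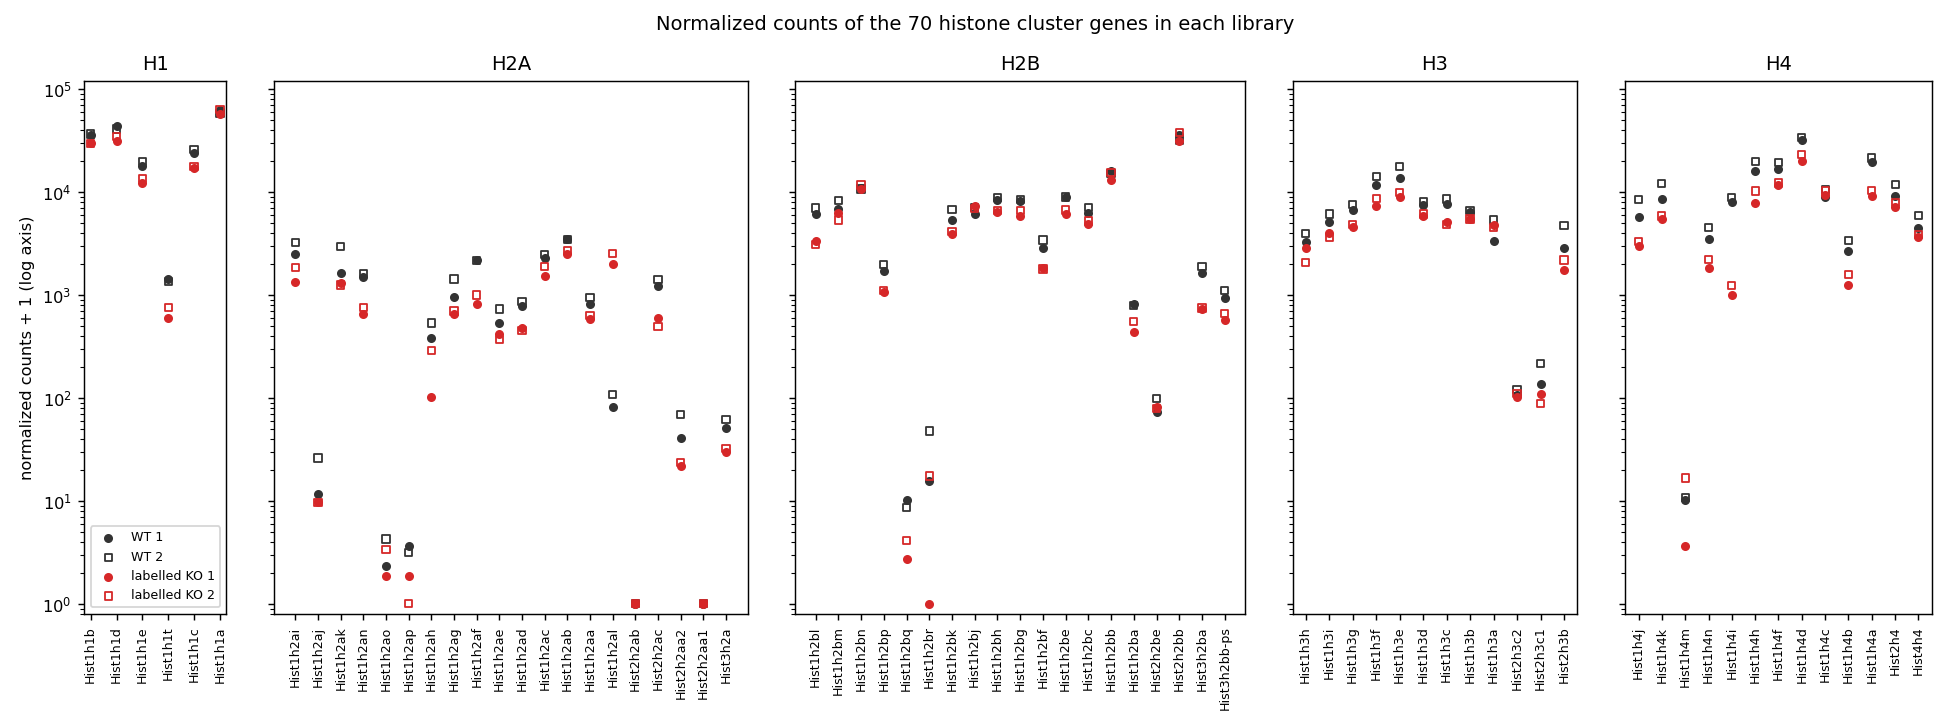
Normalized counts plus 1 (log axis) of each of the 70 histone genes (x axis, by class) in the WT libraries (black) and the KO-labelled libraries (red), with replicate 1 as filled circles and replicate 2 as open squares. Most red points sit below the black points of the same gene, *Hist1h1a*, *Hist1h2bn*, *Hist2h2bb* and *Hist1h4c* overlap, and *Hist1h2al* alone is clearly higher in red.

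Summed over the genes of a class, the level of each class was lower in the KO-labelled libraries, with no overlap between the groups. With mostly copied genes left out the H2B sums overlapped, at a log2 ratio of -0.11, and the other classes stayed apart. The sums were not tested, since the smallest p of an exact two-sided permutation test of 2 libraries against 2 is 0.333. H4 genes summed to 148422 ± 17352 normalized counts in WT (mean and SD, n = 2) and 87047 ± 7688 in the KO-labelled group, which was 58.6% of WT. H3 was at 68.1% of WT, H1 at 83.5% and H2B at 85.0%.

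The sum of the H2A genes moved with *Hist1h2al*. With it the KO-labelled group was at a log2 ratio of -0.53, and without it, in an alternative chosen after its values were seen, at -0.78 or 58.2% of WT. The H1 sum without *Hist1h1a* was at 75.6% of WT. Compared as levels per kb of exon, the H2A genes as a class were far below the H2B genes. Among genes with 50 or more normalized counts on average, the median was 1977 for 13 H2A genes and 10530.2 for 17 H2B genes, against 9059 for H3, 17381 for H1 and 19618 for H4.

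**Figure D4:**
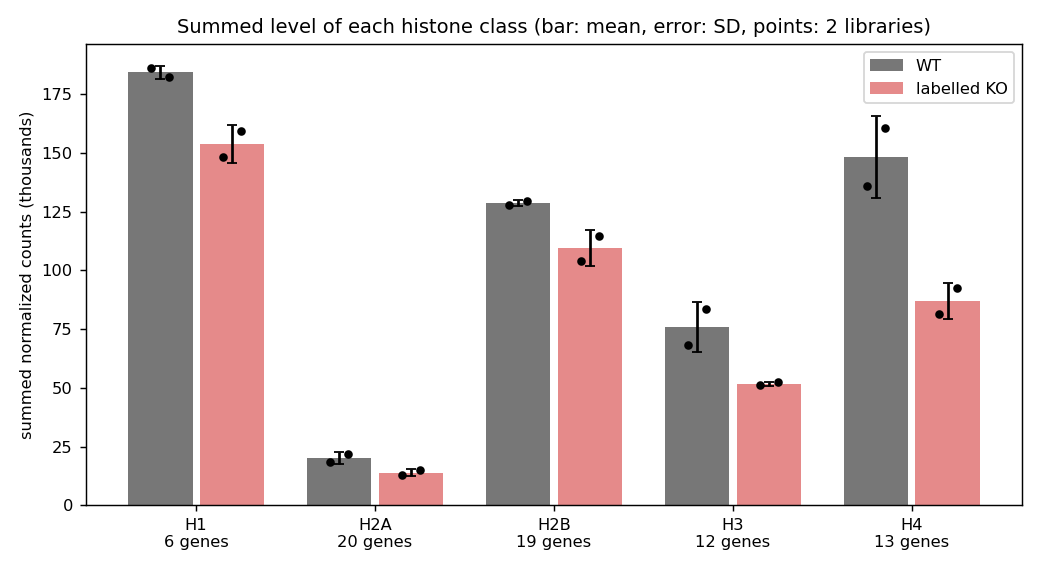
Summed normalized counts divided by 1000 (y axis) of the genes of each histone class (x axis), with bars for the mean of 2 libraries, error bars for the SD and points for the libraries. The KO-labelled points lie below the WT points in each class, and the H4 sum falls to 58.6% of WT, *Hist1h2al* being included in H2A.

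The clusters were compared next. Hist1 falls into 2 stretches 1487 kb apart, besides *Hist1h2al*. In the first, with 24 genes between 21807632 and 22135545, 13 of 21 tested genes fell, with a median log2 fold change of -0.84, which was -0.53 without WT replicate 2. In the second, with 31 genes between 23622919 and 24026720, 27 of 31 fell, with a median of -0.55. All 6 Hist1 genes with a mean under 50 normalized counts are in the first stretch.

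In Hist2, 4 of 8 tested genes fell, against 15.8% of all tested genes, and fewer did when either KO-labelled library was left out. The median log2 fold change was -0.67, and it was -0.39 without KO-labelled replicate 1 or without WT replicate 2. *Hist2h4* had 9202 and 11799 normalized counts in WT and 7152 and 7951 in the KO-labelled libraries (-0.48 ± 0.10, adjusted p = 3.45e-05). *Hist2h3b* had 2860 and 4747 against 1768 and 2190 (-0.94 ± 0.39, adjusted p = 0.0478). Neither passed the test when either KO-labelled library was left out, with adjusted p-values of 0.378 and 0.187 for *Hist2h4* and 0.391 and 0.202 for *Hist2h3b*.

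*Hist2h2ac* and *Hist2h2bb* are described with their classes. *Hist2h3c1* had 137 and 215 normalized counts against 107 and 86.9 (-0.86 ± 0.32, adjusted p = 0.0267) and overlaps *Hist2h2aa1* on the same strand. *Hist2h2be* (-0.11 ± 0.38), the pseudogene *Hist2h3c2* (-0.11 ± 0.33) and *Hist2h2aa2* (-1.30 ± 0.57) did not pass, with adjusted p-values of 0.873, 0.854 and 0.0645. *Hist2h3c1* had an adjusted p of 0.108 without KO-labelled replicate 1, 0.283 without replicate 2, 0.555 without WT replicate 2 and 0.113 with the replicate number as a block.

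In Hist3, *Hist3h2ba* was called lower as above, and the annotated pseudogene *Hist3h2bb-ps* had 944 and 1106 normalized counts in WT and 571 and 658 in the KO-labelled libraries (-0.74 ± 0.14, adjusted p = 3.19e-06). Near-identical windows of *Hist3h2bb-ps* all matched *Hist3h2ba*, and covered 62.0% of it. *Hist3h2a* had 50.4 and 60.98 against 28.7 and 31.3 (-0.89 ± 0.51, adjusted p = 0.188), and 35.6% of its exon overlaps *Trim17*. *Hist4h4*, the only gene of Hist4, had 4496 and 5881 normalized counts against 3695 and 3859. It fell by 0.46 ± 0.11 on the log2 scale (adjusted p = 0.000198) and has no near-identical windows, but its adjusted p was 0.112 to 0.392 when WT replicate 2 or either KO-labelled library was left out.

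Other genes inside the clusters were few and are given as a description. Between the first and the last gene of Hist1, *Hist1h2al* left out, lie 123 genes that are not histone genes, of which 17 were tested. In DESeq2 1 was higher and 0 were lower at an adjusted p under 0.05, 4 were higher and 0 lower at an unadjusted p under 0.05, and edgeR gave 4 higher and 1 lower. The shares over all genes in DESeq2, at an adjusted p under 0.05, were 16.4% higher and 15.8% lower. Hist2 and Hist3 hold 1 such gene each, with log2 fold changes of -0.36 and -0.15, neither of which passed the test. The median over all 3 clusters was 0.20, and it was 0.020 without KO-labelled replicate 2, 0.12 without KO-labelled replicate 1 and 0.11 without WT replicate 1. The 1 gene that was higher did not pass the test when any library was left out. *Abt1*, a basal transcription activator gene, rose from 2046 and 2066 to 2516 and 2494 normalized counts (0.29 ± 0.09, adjusted p = 0.00761), and the zinc finger gene *Zfp184* was at 986 and 987 against 1056 and 1063 (0.10 ± 0.12, adjusted p = 0.574). The medians of all genes with a mean of at least 50 normalized counts were -0.0161 for chromosome 13 and 0.0926 for chromosome 3.

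Near-identical copies limit what a count can be assigned to. With at most 2 mismatches, 47 of the 70 genes had copies elsewhere for at least 50% of their 75-base windows, and 39 of these 47 still had a mean of at least 50 normalized counts. The 6 genes whose windows all have an exact copy (*Hist1h2bq*, *Hist1h2ao*, *Hist1h2ap*, *Hist1h2br*, *Hist2h2aa2* and *Hist2h2aa1*) had means of 0 to 37.7. Their levels therefore cannot be read as low expression. How reads with several matches were counted is not given in the sources used here.

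Genes without copies for most of their windows were also lower. Of the 22 tested genes with copies for under 50% of their windows, 18 fell at an adjusted p under 0.05, 0 rose (0 at an unadjusted p under 0.05 and 0 in edgeR), 5 were called lower (2 without KO-labelled replicate 1), and the median log2 fold change was -0.52. Of the 11 genes with copies for under 10% of their windows, 7 fell, 0 rose and 1 was called lower, with a median of -0.46. Of the 43 mostly copied genes, 29 fell and 1 rose, with a median of -0.70. Across the 60 genes that averaged 50 or more, the share of copied windows and the log2 fold change had a Spearman correlation of -0.19, as a description over genes that share libraries and sequence.

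Genes that act on histone mRNAs, handle histones or replicate DNA were examined as lists. Of 24 genes for transcription and 3′ processing of histone mRNAs, 8 rose and 2 fell at an adjusted p under 0.05, with a median log2 fold change of 0.12. Over all genes 16.4% were higher and 15.8% lower. Most genes of this list and of the lists below had means above 1000 normalized counts. Of all 6988 genes with a mean of at least 1000, 2080 were higher and 1341 lower, with a median of 0.069. *Slbp*, the stem-loop binding protein gene, had 5259 and 5299 normalized counts in WT and 6288 and 6171 in the KO-labelled libraries (0.24 ± 0.07, adjusted p = 0.00527). *Npat*, the coactivator of histone promoters, had 3185 and 3545 against 4589 and 3875 (0.33 ± 0.10, adjusted p = 0.00453). *Gon4l* (0.39 ± 0.08), *Cpsf1* (0.35 ± 0.07), a subunit of the cleavage complex, and *Hinfp* (0.31 ± 0.12), which binds H4 promoters, also rose, and *Ncbp1*, the cap-binding subunit, fell by 0.36 ± 0.07 on the log2 scale. The number that rose was 3 or 4 when any library was left out and 3 with the replicate number as a block. *Slbp* did not pass the test in any of those fits, with adjusted p-values of 0.0754 to 0.109, nor did *Hinfp*, and *Npat* did not without WT replicate 1, without KO-labelled replicate 1 or with chromosome medians removed. With those medians removed *Ncbp1* was at -0.16 (adjusted p = 0.0807) and *Hinfp* at 0.18 (adjusted p = 0.317), so that neither passed.

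Of 11 tested histone genes outside the clusters, most of them for variants made throughout the cell cycle, 4 fell and 2 rose, with a median of -0.12. Over all genes 15.8% were lower and 16.4% higher. *H2afy2*, for macroH2A2, was called lower, with 1521 and 1307 normalized counts against 673 and 723 (-1.02 ± 0.13, adjusted p = 8.25e-14), but with the median of chromosome 10 removed it was at -0.67, without WT replicate 1 at -0.90 and without KO-labelled replicate 1 at -0.96, and was not called. *H2afx*, whose mRNA can end in a stem-loop, had 14104 and 17272 against 8006 and 8835 (-0.90 ± 0.09, adjusted p = 6.42e-20). *H2afj* fell by 0.84 ± 0.11 and *H1f0* by 0.54 ± 0.11 on the log2 scale, whereas *H2afv* (0.38 ± 0.08) and *H3f3a* (0.30 ± 0.07), an H3.3 gene, rose.

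Of 20 histone chaperone genes, 4 rose and 4 fell, with a median of -0.0137, where 16.4% of all tested genes were higher and 15.8% lower. With the median of each chromosome removed, 7 were higher and 2 lower, with a median of 0.0409. *Ubn2* (0.74 ± 0.11), of the H3.3 chaperone HIRA, *Hjurp* (0.57 ± 0.08), the chaperone of the centromeric H3, and *Supt16h* (0.42 ± 0.07), of FACT, rose. *Nap1l1* fell by 0.51 ± 0.06 and *Rbbp4* by 0.34 ± 0.06 on the log2 scale, and with chromosome medians removed they were at -0.16 (adjusted p = 0.0467) and -0.13 (adjusted p = 0.101). The number lower was 2 without WT replicate 1 or without KO-labelled replicate 2.

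Of 34 DNA replication and S phase genes tested, 14 rose and 5 fell at an adjusted p under 0.05, and the median log2 fold change was 0.14. The shares were 16.4% and 15.8% over all genes. Of the 6988 genes with a mean of at least 1000 normalized counts, 2080 were higher and 1341 lower. *Pola1* (0.66 ± 0.07), of DNA polymerase alpha, *Cdc6* (0.51 ± 0.08), which helps to load the replicative helicase, and *Mcm6* (0.48 ± 0.08), a subunit of that helicase, rose. *Rrm2*, of ribonucleotide reductase, fell by 0.52 ± 0.06 and *Cdt1* by 0.42 ± 0.16 on the log2 scale. *Cdt1* did not pass the test with the replicate number as a block or without WT replicate 1, where it was at -0.14, or either KO-labelled library, and *Rrm2* was at -0.20 with the median of its chromosome removed. The number that rose was 8 when WT replicate 2 or KO-labelled replicate 2 was left out, and the number that fell was 3 without KO-labelled replicate 1. Cell cycle phase was not analysed here.

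**Figure D5:**
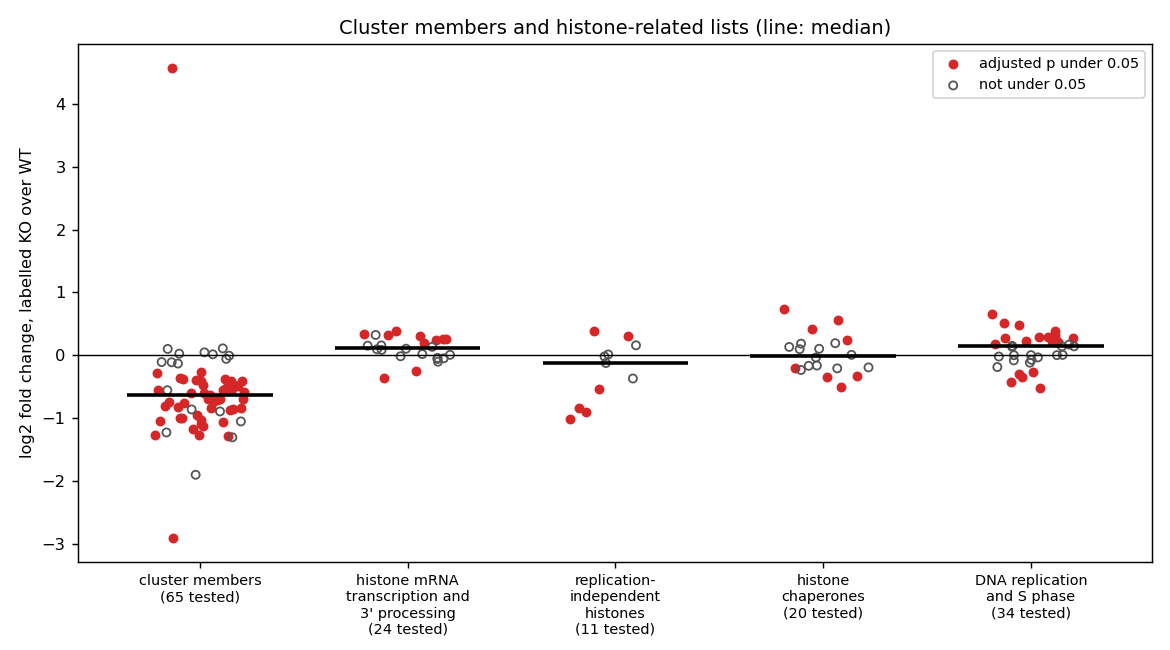
Log2 fold change (y axis, KO-labelled over WT) of each tested gene among the clustered histone genes and in 4 related lists (x axis), with filled red points at an adjusted p under 0.05, open points otherwise and a line at the median. The line lies at -0.62 for the clustered histone genes and at 0.12, -0.12, -0.0137 and 0.14 for the lists.

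Of 14 other short or non-polyadenylated RNAs and rows that collect ribosomal RNA reads, 5 matched a symbol of the annotation. *Neat1* (0.54 ± 0.09, adjusted p = 2.47e-08) and *Malat1* (0.20 ± 0.06, adjusted p = 0.00972), nuclear long noncoding RNAs, rose. Both lie on chromosome 19, where the median of all genes was 0.38. With that median removed *Neat1* was at 0.15 (adjusted p = 0.208) and *Malat1* at -0.19 (adjusted p = 0.018). *Malat1* also did not pass the test with the replicate number as a block, in edgeR, or without WT replicate 1, WT replicate 2 or KO-labelled replicate 2. *Malat1*, whose 3′ end is made without a poly(A) signal, had 103804 and 104076 normalized counts in WT and 114696 and 123503 in the KO-labelled libraries. *Lars2* had 716146 and 169048 against 91055 and 37447 (-2.78 ± 1.08, adjusted p = 0.0325). It did not pass without WT replicate 1, where it was at -1.39 (adjusted p = 0.381), or without either KO-labelled library (adjusted p = 0.079 and 0.318). *mt-Rnr1* (-1.02 ± 0.50, adjusted p = 0.109) and *mt-Rnr2* (-0.99 ± 0.46, adjusted p = 0.0888), the mitochondrial ribosomal RNAs, did not pass. These 3 rows were highest in WT replicate 1.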

How the data were processed

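RNA was sequenced from 2 WT and 2 *Spen* KO clone 2 libraries, grouped by the sample labels. Per the study's methods, stranded libraries depleted of ribosomal RNA were read as paired 75-base reads and mapped to mm9 with STAR, and the authors counted reads per GENCODE vM1 gene with featureCounts. The deposited values are these raw counts, and 0 columns lacked a sample. Tool versions, strand settings and the treatment of multiply matching reads are not given in the sources used here, so copies and overlapping genes are uncertain. Positions are 1-based on NCBIM37 (mm9), whose annotation matched the table.

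DESeq2 1.42.0 (R 4.3.3) was fitted to the counts of all 4 libraries (group as the only term, Wald test, default size factors and filtering, Benjamini-Hochberg adjustment over all genes). Called genes changed at least 2-fold at an adjusted p under 0.001, and rose or fell otherwise means an adjusted p under 0.05. A positive log2 fold change means more RNA in the KO-labelled group. Normalized counts are counts divided by size factors, and levels per kb divide these by exonic length. Alternatives were edgeR 4.0.16 quasi-likelihood tests, TMM factors, a filter of at least 10 counts in 2 libraries, the replicate number as a block, removal of chromosome medians, the 2-fold rule at an adjusted p under 0.05, and leaving out each library or mostly copied genes. On simulated counts with 200 genes changed 3-fold between 2 libraries and 2, DESeq2 called 76.5% of them and 3 others among 19757 genes, and edgeR 72.5% and 5 others among 17216.

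Copies were counted over 75-base exonic windows, exactly and, with blastn 2.17.0 at every 5th base, with at most 2 mismatches. Depth limits genes with few counts first, and a floor of 3 counts covers counting error only (PCR copies were not told apart by molecular identifiers). The genes named are every called gene, the highest per exonic length in each class of each cluster, all H1, Hist2, Hist3 and Hist4 genes, mostly copied genes with a mean of at least 50 normalized counts (many given by counts only), *Slbp*, *Npat*, *Spen*, and in the lists called genes and up to 5 more by absolute log2 fold change. The member rule and the lists were chosen with earlier results of these data known. For genes between histone genes, Hist1 was taken without the distant *Hist1h2al*.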

Additional observations from a re-analysis of the deposited data

How the results depend on the processing

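With 2 libraries a group, calls near a threshold depend on single libraries. Leaving out each library in turn gave 6 to 15 histone genes called lower, 1 to 2 higher at an adjusted p under 0.05, and a median of -0.69 to -0.48. Without mostly copied genes 5 were called lower, 0 called higher, and 18 passed an adjusted p of 0.05 lower and 0 higher, since fewer genes were counted. TMM, the low-count filter, edgeR, a looser adjusted p with the 2-fold rule and chromosome medians moved no count of histone genes by over 1.5 times. Replicate numbers did not pair the libraries (correlation of deviations -0.0177 over 13306 genes). The replicate block gave 12 called lower, 47 lower at an adjusted p under 0.05 and a median of -0.63.

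In the lists, with a library left out, histone mRNA factors higher numbered 3 to 4 and lower 1 to 2, chaperones lower 2 to 3, replication genes higher 8 to 10 and lower 3 to 5, other RNAs higher 1 to 2 and lower 0 to 3, and genes between histone genes higher 0. With the replicate block the mRNA factors were 3 higher and 1 lower, other RNAs 1 higher and genes between 0 higher. With chromosome medians removed, mRNA factors lower were 0, chaperones 7 higher and 2 lower, and other RNAs 0 higher and 2 lower. edgeR gave 1 higher and 3 lower other RNAs, and 4 higher and 1 lower between histone genes, where the low-count filter gave 2 higher. The causes were not tested.

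Summed log2 ratios without mostly copied genes were -0.11 for H2B (the groups then overlap), -1.01 for H4 and -1.26 for Hist3. Chosen after seeing the data, H1 without *Hist1h1a* was -0.40 and H2A without *Hist1h2al* -0.78.

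Signs turned in 8 genes near 0 that had not passed the test. With chromosome medians removed *Hist1h1a* was 0.0102 and *Hist2h2bb* -0.066. With a library left out *Hist1h1a* ranged from -0.0793 to 0.0739, *Hist2h2bb* from -0.11 to 0.16, *Hist1h4c* from -0.0892 to 0.14, *Hist1h3a* from -0.20 to 0.49, *Hist1h2bb* from -0.26 to 0.00080, *Hist1h2bn* from -0.0124 to 0.11, *Hist2h2be* from -0.31 to 0.14 and *Hist2h3c2* from -0.20 to 0.0058. Among other values of single genes, 32 lost and 13 gained an adjusted p under 0.05, and 511 kept their side.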
